A study of Mus musculus with 6 samples.

Results

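The mitochondrial respiratory chain and the ATP synthase are built from proteins of 2 genomes, and the genes described here are those carried in the nucleus. The members were all protein-coding genes whose symbols carry the name stems of these subunits (Nduf followed by a, b, c, s or v and a number, Uqcr, Cox4 to Cox8, Atp5, and Sdha to Sdhd), with pseudogenes left out. They numbered 83 of the 41388 genes listed: 36 in complex I, 4 in complex II, 8 in complex III, 18 in complex IV and 17 in complex V. The rule used names only and no measured value. It left out 7 pseudogene rows, and it misses subunits named otherwise, such as Cyc1 of complex III and Ndufab1 of complex I.

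RNA was sequenced from cells sorted from dorsal root ganglia, the sensory ganglia beside the spinal cord, of C57BL/6 mouse embryos at 18.5 days post coitum. The libraries are called A, B and C within each sex. All 6 came from embryos labelled RetFloxedEGFP with Cre in Scn10a (Scn10a<tm2(cre)Jnw>), in which EGFP marks cells of the Ret lineage that have expressed Cre from the NaV1.8 locus, and the sort kept EGFP-positive cells. The number of Ret alleles replaced is not stated. The ganglia ran from T11 to S1, with 40 ganglia of 2 embryos pooled in each of 4 libraries, 60 ganglia of 3 embryos in male B and 20 ganglia of 1 embryo in male C, which also has a later record and a shortened genotype label. Read totals ran from 15693013 to 24033601. Markers of the sorted cells were present, with Stmn2, a neuronal tubulin-binding protein, at 2897 ± 248 RPKM (reads per kilobase of gene, scaled to library size, SD, n = 6) and Scn10a, the NaV1.8 channel itself, at 119 ± 16.8 RPKM. Ret, the other gene of the sort, was at 27.8 ± 3.83 RPKM, and the 10 sensory neuron markers ranged from Stmn2 down to Rbfox3 at 24.2 ± 8.09 RPKM and Tlx3 at 0.819 ± 0.267 RPKM. Markers of satellite glia and Schwann cells, cells that surround sensory neurons, were also present, with a summed 1880 to 2388 CPM (counts scaled to library size) over 12 genes. RNA of a bulk sort cannot tell fewer cells of a type from less RNA per cell.

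As background, complexes I and II pass electrons from NADH and succinate to coenzyme Q, complex III passes them on to cytochrome c, and complex IV passes them to oxygen. Complexes I, III and IV pump protons, and complex V, the ATP synthase, uses the proton gradient to make ATP. Complex II is also an enzyme of the citric acid cycle and is the one complex with no subunit encoded in mitochondrial DNA. Neurons depend heavily on this pathway, and several subunits of complexes IV and V exist as alternative isoforms encoded by separate genes. The best known of these are the heart and skeletal muscle forms Cox6a2, Cox7a1 and Cox8b beside the widely expressed forms Cox6a1, Cox7a2 and Cox8a.

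RefSeq promoter windows (250 bases before to 50 after the start, GRCm38.p6) matched 66 of the 83 members, in 71 windows. The motif of NRF1, a transcription factor known for driving respiratory genes (GCGC, any base and TGCGC, both strands), was present in the windows of 17 of the 66 members. It was in 25.4% of member windows and in 4.6% of all 32851 windows of the same length. The motif of ETS factors such as GABP (CCGGAAG, both strands) was present in 16 members, in 22.5% of member windows and 8.9% of all windows. The YY1 motif (AA, any base and ATGGCGG) was in 8.5% against 1.4%, and the motif of oestrogen-related receptors (TCAAGGTCA) in 2.8% against 0.4%. The CCAAT box (CCAAT, 42.3% against 37.4%), the GC box (GGGCGG, 38.0% against 35.7%) and the TATA box (TATAAA, 11.3% against 13.6%) were at shares closer to those of all windows. The NRF1, ETS, YY1 and GC box motifs contain CG dinucleotides, of which member windows had a median of 19 and all windows a median of 7. All windows were not restricted to expressed genes. The part of CG content in these shares was not tested. Some searched motifs overlap by their letters, and a match is a description of the sequence and not of binding.

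The 150 bases before the start are shown for Cox6a1, the one gene with the NRF1 motif among the 13 complex IV members that have a window, at chr5:115348959-115349108 on the minus strand, with the NRF1 match and the ETS match in capitals, both as read on the other strand. The same stretch is shown for 2 isoform pairs that differ widely in level, with every CG dinucleotide in capitals: Cox7a2 (chr9:79759854-79760003, minus strand) with Cox7a1 (chr7:30184021-30184170, plus strand), and Cox8a (chr19:7217617-7217766, minus strand) with Cox8b (chr7:140900447-140900596, minus strand). Those of Cox5a (chr9:57521082-57521231, plus strand) and Uqcrfs1 (chr13:30545317-30545466, minus strand) are shown in the same way because these genes varied most among the libraries.
Cox6a1: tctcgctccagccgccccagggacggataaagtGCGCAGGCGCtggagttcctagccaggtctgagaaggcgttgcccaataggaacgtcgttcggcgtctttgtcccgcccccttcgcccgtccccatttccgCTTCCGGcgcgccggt
Cox7a2: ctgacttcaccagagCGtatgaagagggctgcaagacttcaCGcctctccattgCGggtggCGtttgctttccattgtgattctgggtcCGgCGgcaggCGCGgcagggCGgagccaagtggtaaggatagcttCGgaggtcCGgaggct
Cox7a1: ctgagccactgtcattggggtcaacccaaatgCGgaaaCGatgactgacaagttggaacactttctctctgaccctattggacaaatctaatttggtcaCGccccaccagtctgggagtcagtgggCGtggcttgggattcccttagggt
Cox8a: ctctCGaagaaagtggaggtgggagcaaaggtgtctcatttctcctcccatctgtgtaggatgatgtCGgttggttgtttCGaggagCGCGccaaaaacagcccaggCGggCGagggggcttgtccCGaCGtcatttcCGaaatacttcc
Cox8b: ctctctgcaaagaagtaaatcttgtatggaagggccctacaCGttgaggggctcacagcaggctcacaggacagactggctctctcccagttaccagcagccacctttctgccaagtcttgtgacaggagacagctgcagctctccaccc
Cox5a: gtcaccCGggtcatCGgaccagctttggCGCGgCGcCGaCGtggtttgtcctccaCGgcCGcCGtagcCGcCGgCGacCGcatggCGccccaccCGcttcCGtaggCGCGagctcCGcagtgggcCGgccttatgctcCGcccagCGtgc
Uqcrfs1: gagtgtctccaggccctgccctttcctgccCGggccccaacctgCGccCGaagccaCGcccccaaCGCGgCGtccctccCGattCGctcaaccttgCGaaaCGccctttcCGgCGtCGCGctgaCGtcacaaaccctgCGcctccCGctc

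The stretch of Cox7a2 held 11 CG dinucleotides and that of Cox7a1 held 4. The stretch of Cox8a held 10 and that of Cox8b held 1. Those of Cox5a and Uqcrfs1 held 23 and 18. Over the whole windows the members had a median of 19 CG dinucleotides, with Cox8b the lowest at 2 and Atp5j the highest at 43, and all windows had a median of 7.

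Subunit genes were expressed far above the typical gene. The median over all 83 members of log2(RPKM + 0.1) was 6.93 ± 0.15 (SD, n = 6), and over the 15026 genes that passed the filter on low counts it was 1.98 ± 0.04. A mean above 100 RPKM was reached by 47 of the 83 members and by 633 of the 15026 genes. Summed over members, the libraries held 16897 ± 1502 CPM. Of the members, 79 passed the filter, and the 4 that did not were Cox6a2, Cox8b, Cox8c and Atp5g2.

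The complexes lay close together apart from complex IV, whose list contains the rare isoforms. On the log2(RPKM + 0.1) scale the median over members was 6.80 ± 0.14 in complex I, 7.07 ± 0.13 in complex II, 7.31 ± 0.21 in complex III, 6.05 ± 0.41 in complex IV and 7.10 ± 0.12 in complex V (SD, n = 6). Complex III was at the top of this order and complex IV at the bottom. In male C, complex II (7.30) was above complex III (7.25). Complexes II and V differed by less than the spread between libraries and changed places among them. Within libraries, complex II was above complex I and complex III above complex V in 6 of 6. With the 15 complex IV members that passed the filter alone, its median was 6.77, and the gap to complex I was then also within the spread.

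**Figure D1:**
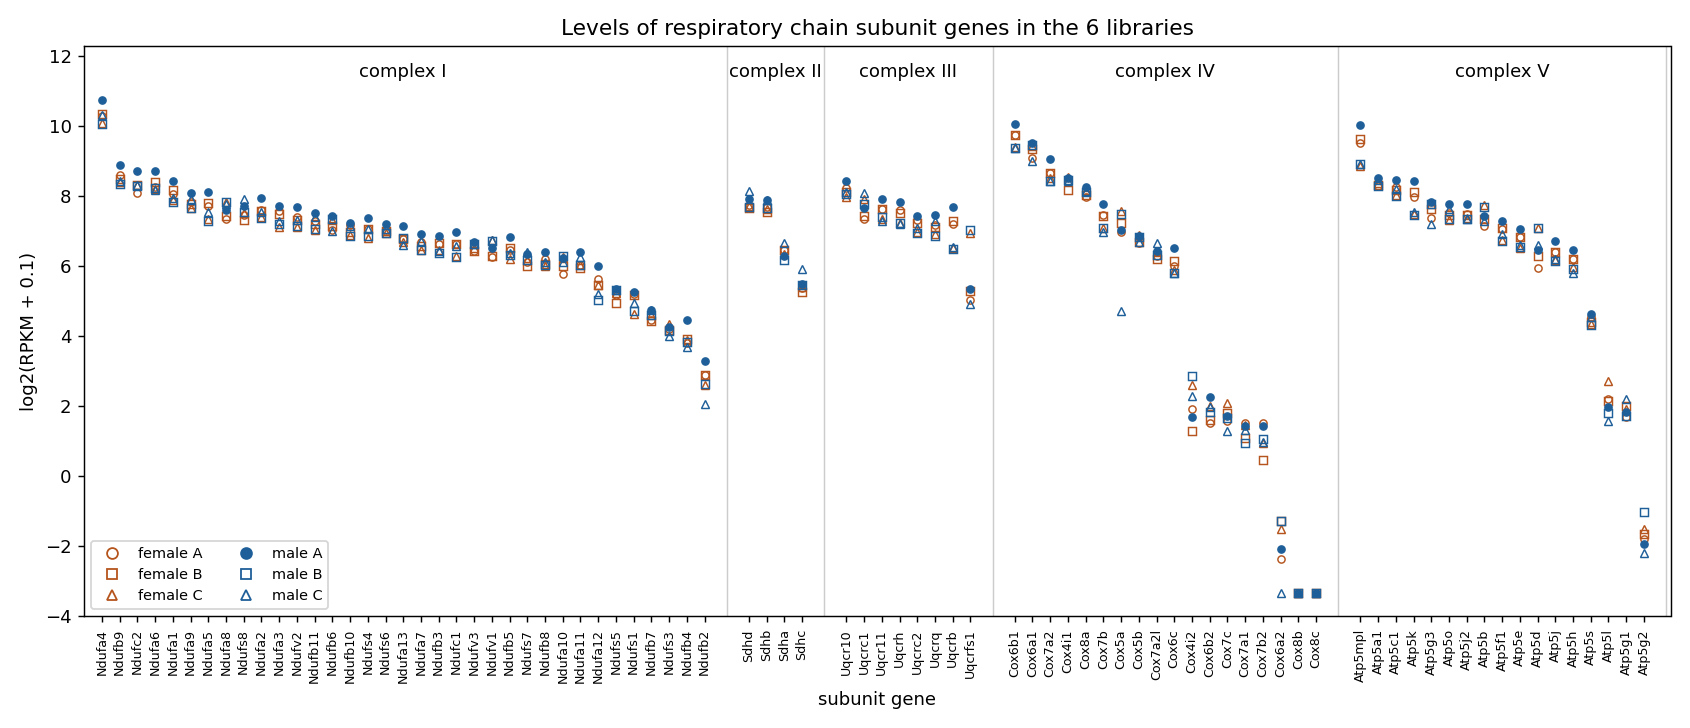
Level of the subunit genes (x axis, ordered by mean within each complex) as log2(RPKM + 0.1) (y axis), with 1 point per library. Ndufa4, Cox6b1, Atp5mpl and Cox6a1 are at the top, 47 genes have a mean above 100 RPKM, and Cox8b and Cox8c lie at 0 reads in all 6 libraries.

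Complex I takes electrons from NADH through a conserved core, to which many accessory subunits are added. Its core subunits ranged from Ndufs3 at 18.3 RPKM to Ndufs8 at 194 RPKM. Its 29 accessory subunits ranged from Ndufb2 at 6.78 RPKM to Ndufa4 at 1289 RPKM, with a median of the mean levels of 132 RPKM. RPKM depends on the deposited gene length, such as 8086 bases for the core gene Ndufs1, and core and accessory subunits were not compared. Ndufa4 (chr6:11900373-11907446, minus strand, 4 exons; deposited coordinates, GRCm38) was the highest of all members, at 1258, 1319 and 1093 RPKM in female A, B and C and at 1715, 1072 and 1279 RPKM in male A, B and C. Its product was first named a complex I subunit and is now known as a component of complex IV. The highest value was in male A, and the other 5 libraries of both sexes overlapped. Ndufb9 at 374 ± 54.9 RPKM and Ndufc2 at 330 ± 50.5 RPKM, both accessory subunits of the membrane arm, came next. The lowest complex I gene in RPKM was Ndufb2, another membrane arm subunit, at 6.78 ± 1.87 RPKM with a deposited length of 5628 bases. In mean CPM, which does not use length, Ndufb2 at 38.2 was above Ndufs5 at 32.3 and Ndufb4 at 18.1.

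Complex II has 4 subunits, which oxidise succinate and hand the electrons to coenzyme Q. The flavoprotein Sdha and the iron-sulfur protein Sdhb, which do the catalysis, were at 85.3 ± 10.3 and 213 ± 21.8 RPKM. The membrane anchors Sdhc and Sdhd were at 45.4 ± 8.03 and 228 ± 30.2 RPKM. Sdhc was the lowest of the 4 genes in each library.

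In complex III no member was rare. The highest was Uqcr10, a small subunit of the complex, at 288 ± 33.8 RPKM, followed by the core protein Uqcrc1 at 213 ± 42.8 RPKM and the small subunit Uqcr11 at 188 ± 31.3 RPKM. The lowest was Uqcrfs1, the Rieske iron-sulfur protein that passes electrons towards cytochrome c1, at 66.6 ± 48.1 RPKM. Cyc1, cytochrome c1 itself and outside the symbol rule, was at 67.9 ± 24.2 RPKM.

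Complex IV held both very high and undetected genes. Cox6b1, a subunit facing the intermembrane space, was at 803 ± 160 RPKM, Cox6a1 at 644 ± 90.7 RPKM and Cox7a2 at 403 ± 72.3 RPKM, the last 2 being small regulatory subunits. Cox4i1, the largest nuclear-encoded subunit, was at 347 ± 29.5 RPKM. Cox7c, a small subunit without a known isoform, was read at only 3.18 ± 0.59 RPKM, with 40 to 112 reads in a library. Of its 50-base words, 23.03% also occur in 3 pseudogenes, and the sources used here do not give how reads that match several places were counted.

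Complex V consists of the F1 head, where ATP is made, and a membrane part with a rotating ring of c subunits. The catalytic head genes Atp5a1 and Atp5b were at 334 ± 22.8 and 176 ± 28.4 RPKM, and Atp5c1 of the central stalk at 296 ± 36.0 RPKM. Atp5mpl, a small membrane subunit, was the highest at 672 ± 232 RPKM. Atp5l, the g subunit of the membrane part, was read at only 4.27 ± 1.28 RPKM, or 22 to 80 reads, and 84.85% of its 50-base words occur in 14 other genes, 7 of them pseudogenes. Levels of Atp5l, Cox7c and Atp5g2 (38.35% of words shared) are therefore uncertain. Other members also shared more of their words than Cox7c, among them Uqcrb (43.42%), Ndufs3 (39.72%), Atp5f1 (37.55%), Ndufb4 (36.98%) and Atp5h (36.86%). Atp5o, of the stator stalk, shared 47.62% of its words and was at 184 ± 22.7 RPKM. The part of sharing in these levels was not tested.

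Each isoform family had 1 dominant gene, and it was the widely expressed form in every family of complex IV. For each of 10 pairs, the difference in log2(RPKM + 0.1) within libraries was tested with an exact permutation of its signs across the 6 libraries, two-sided. All 10 had the same direction in 6 of 6 libraries, with p = 0.03125 and adjusted p = 0.03125 in this exact test, the smallest p that 6 libraries allow. The pairs were chosen from what is known of these genes and with earlier results in view.

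Cox4i1 was at 343, 294 and 375 RPKM in female A, B and C and at 372, 356 and 345 RPKM in male A, B and C. Cox4i2, known as a form of lung and of oxygen-sensing cells, was at 3.68, 2.34 and 5.97 RPKM in the females and 3.13, 7.15 and 4.87 RPKM in the males. The 2 genes did not overlap in any library, and Cox4i1 was higher by 6.32 ± 0.52 on the log2 scale (SD, n = 6), a ratio of means of 76.8. Cox4i2 was highest in male B and female C. Cells of vessel walls carry Cox4i2 in some tissues. Of such cells, 10 pericyte and smooth muscle markers summed to 72.7 to 104 CPM, highest in male C. The defining genes Kcnj8 and Higd1b were at 0.077 and 0.071 RPKM, from 0 to 12 and 0 to 4 reads. Both were highest in female C and male B. Kcnj8 was at 0.192 and 0.229 RPKM there (0 to 0.042 elsewhere) and Higd1b at 0.149 and 0.197 RPKM (0 to 0.079). Notch3 was also highest there, at 0.543 and 0.587 RPKM (0.234 to 0.364 elsewhere). Rgs5, at 9.88 RPKM, was lowest there, at 7.40 and 7.68 RPKM (10.1 to 12.6 elsewhere). Pdgfrb, Tagln, Acta2, Cspg4 and Myh11 were highest in male C and Abcc9 in female A. The part of these cells in the level of Cox4i2 was not tested.

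Cox6a1 was at 553, 649 and 700 RPKM in female A, B and C and at 742, 704 and 515 RPKM in male A, B and C, while Cox6a2, the heart and muscle form, had 0 to 5 reads in a library. The difference was 11.28 ± 0.65 on the log2(RPKM + 0.1) scale, which understates differences of such low genes. Cox7a2 was at 409, 407 and 369 RPKM in the females and 540, 346 and 350 RPKM in the males. Cox7a1, the heart and muscle form of this subunit, was at 2.77, 2.02 and 2.65 RPKM in the females and 2.64, 1.84 and 2.40 RPKM in the males. Cox7a2 was higher by 7.34 ± 0.25 on the log2 scale, and Cox7a1 showed no library apart from the rest. Of the stretches shown above, that of the higher gene, Cox7a2, holds more CG dinucleotides. Other pairs went both ways over the whole windows, with 17 in Cox6b1 and 10 in Cox6b2, but 5 in the higher Cox7b and 10 in Cox7b2. The windows of Atp5g3, Atp5g2 and Atp5g1 held 21, 20 and 16. A relation of CG number to level was not tested.

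Cox8a was among the steadiest members, at 255, 265 and 291 RPKM in female A, B and C and at 307, 277 and 287 RPKM in male A, B and C. Cox8b, the heart and muscle form, and Cox8c, a form known from testis, had 0 reads in all 6 libraries. A count of 0 allows up to 3 reads, so in the library with the narrowest margin Cox8a was at least 487-fold higher than Cox8b and at least 641-fold higher than Cox8c. The fitted log2 difference of 11.45 depends on the pseudocount. Such limits cover counting error only, since PCR copies are not independent molecules.

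The testis forms of subunits 6B and 7B were low and not absent. Cox6b2 was at 3.61 ± 0.70 RPKM against 803 ± 160 RPKM for Cox6b1, a log2 difference of 7.76 ± 0.36. Cox7b2 was at 2.07 ± 0.55 RPKM against 162 ± 35.4 RPKM for Cox7b, a log2 difference of 6.24 ± 0.39. Each had reads in every library, with 49 to 114 for Cox6b2 and 15 to 31 for Cox7b2. Germ cell markers summed to 2.36 to 4.57 CPM over 6 genes.

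Markers of the tissues that use the muscle forms were mostly near 0. Of 16 striated muscle genes, Myod1 and Tnnc2 had 0 reads in all libraries and Ckm, muscle creatine kinase, was at 0.121 RPKM, and 5 passed the filter. The highest were Acta1, skeletal actin, at 5.64 ± 0.86 RPKM, Mylpf at 2.46 ± 0.81 RPKM and Tnnt1 at 2.14 ± 0.44 RPKM, levels similar to or above that of Cox7a1. The 16 genes summed to 19.2 to 27.2 CPM, and their part in the level of Cox7a1 was not tested. In brown fat, which also uses Cox7a1 and Cox8b, the defining gene is Ucp1, which was at 0.028 RPKM, and 7 brown fat markers summed to 3.20 to 4.47 CPM.

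Atp5g1, Atp5g2 and Atp5g3 encode one and the same c subunit of the ATP synthase ring with different import signals, and Atp5g3 dominated. Atp5g3 was at 166, 199 and 223 RPKM in female A, B and C and at 230, 219 and 147 RPKM in male A, B and C. Atp5g1 was at 3.68 ± 0.51 RPKM, lower by a log2 difference of 5.70 ± 0.39, and Atp5g2 was at 0.224 ± 0.097 RPKM with 3 to 16 reads, lower by 9.28 ± 0.32. Atp5g2 was also below Atp5g1, with a log2 difference of -3.58 ± 0.54. The Atp5g3 transcript shares none of its 50-base words with other genes, Atp5g1 shares 11.1% and Atp5g2 38.35%, and the part of this sharing in the last 2 levels was not tested.

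**Figure D2:**
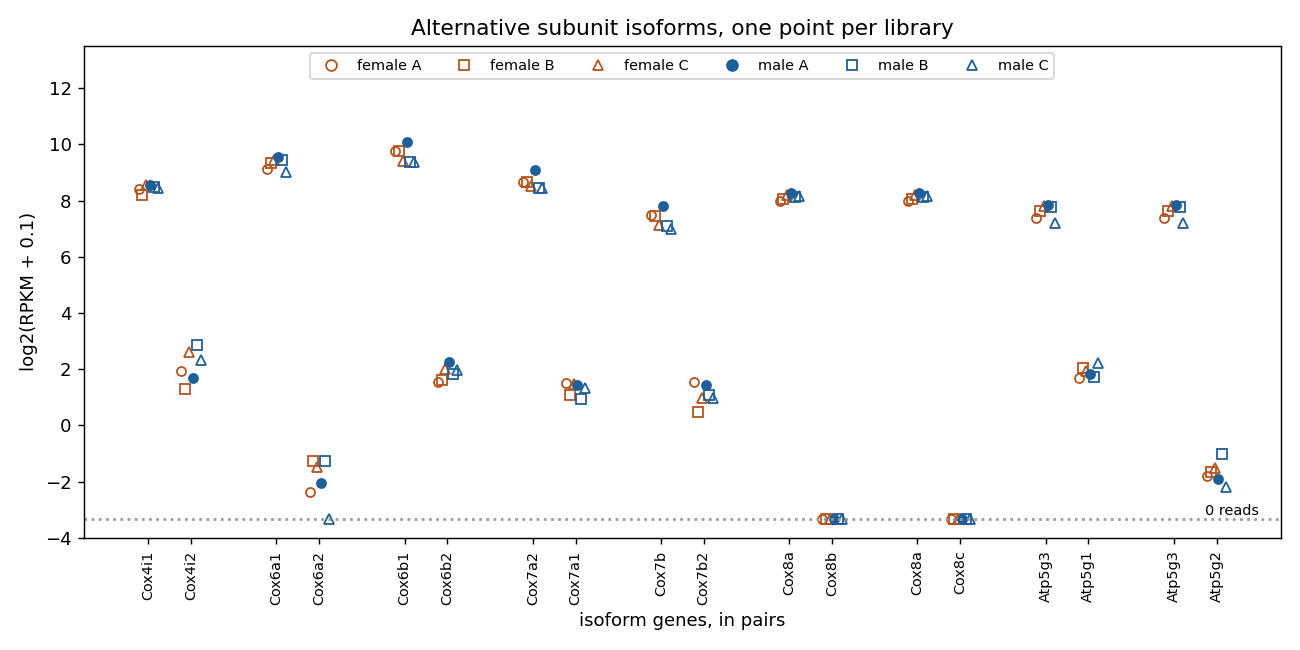
Levels of alternative isoforms as log2(RPKM + 0.1) (y axis), each pair side by side on the x axis, with 1 point per library. In all 9 pairs drawn the dominant gene is above its partner in every library, and the dotted line marks 0 reads, where Cox8b and Cox8c lie.

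No member was called different between sexes. Female against male is the one comparison with replicates that the labels allow, and edgeR's quasi-likelihood test called 5 of 15026 genes at an adjusted p of 0.05 (0.0333%). It called 0 of the 79 members. At an unadjusted p under 0.05 it had 166 genes (1.1%) and 0 members, and DESeq2 and limma-voom also called 0 members. The smallest adjusted p of a member in edgeR was 0.99968. With 3 libraries a sex, of which male C is 1 embryo, p-values measure the spread between these libraries.

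The member of smallest p in complex I was Ndufs8, an iron-sulfur core subunit, at 177, 161 and 183 RPKM in female A, B and C and at 212, 189 and 244 RPKM in male A, B and C. Every male library was above every female library, and the log2 fold change, female over male, was -0.30 (SE 0.16, unadjusted p = 0.0843 in edgeR). In complex V it was Atp5l, at 4.56, 4.33 and 6.57 RPKM in the females and 3.85, 3.43 and 2.90 RPKM in the males, with a log2 fold change of 0.60 (SE 0.33, unadjusted p = 0.1003 in edgeR) from few reads. Without female C the value of Atp5l was 0.38. In the other complexes the smallest p belonged to Sdhc (log2 fold change -0.30, SE 0.17), Uqcrc1 (-0.28, SE 0.20) and Cox7a2l, a subunit linked to supercomplexes (-0.19, SE 0.16). Without male C the value of Sdhc was -0.13, that of Uqcrc1 -0.14 and that of Cox7a2l -0.09. Without female C the value of Uqcrc1 was -0.48 (unadjusted p = 0.030, adjusted p = 0.782 in edgeR).

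All male libraries were above all female libraries at 6 members (Ndufb7, Ndufs5, Ndufs7, Ndufs8, Ndufv3 and Sdhc), beside 2.53% of all tested genes. The reverse held for 1 member, Atp5l, beside 3.17% of all genes. The 3 members on the X chromosome had log2 fold changes of -0.04 (Ndufa1), -0.17 (Ndufb11) and 0.01 (Cox7b), each smaller than or close to its SE of 0.19, 0.17 and 0.22. By sign alone, 65 of 79 members (82.3%) were lower in females, beside 50.9% of all genes, with a median log2 fold change of -0.08 and a median of -0.005 over all genes. This lean rested on male A: without it, 44 members were higher in females and 36 in males, with a median of 0.03.

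Male A stood apart from the other libraries across the respiratory chain. It was the highest of the 6 libraries at 54 of the 79 tested members (68.4%) and at 14.2% of all tested genes, and the lowest at 0 members, beside 14.9% of all genes. The members lay a median of 0.33 on the log2 scale above the mean of the other 5 libraries, and all genes a median of -0.01. The counts by complex were 29 of 36 in complex I, 0 of 4 in complex II, 6 of 8 in complex III, 7 of 15 in complex IV and 12 of 16 in complex V. Summed over members, male A held 19926 CPM and the other 5 libraries 15922 to 16505 CPM. The other libraries were seldom the highest: female A at 2 members (19.8% of all genes), female B at 0 (11.8%), female C at 8 (14%), male B at 5 (17.3%) and male C at 10 (22.7%). Male B was the lowest most often, at 24 members (15.6% of all genes), followed by male C at 17 (22.9%), female B at 14 (12%), female C at 13 (15.4%) and female A at 11 (19.2%). With the total count as scale the order of male B and male C turned, with male C the lowest at 30 members (29.7% of all genes) and male B at 17 (14.9%). These are comparisons of single libraries with no group label, so no test was made.

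**Figure D3:**
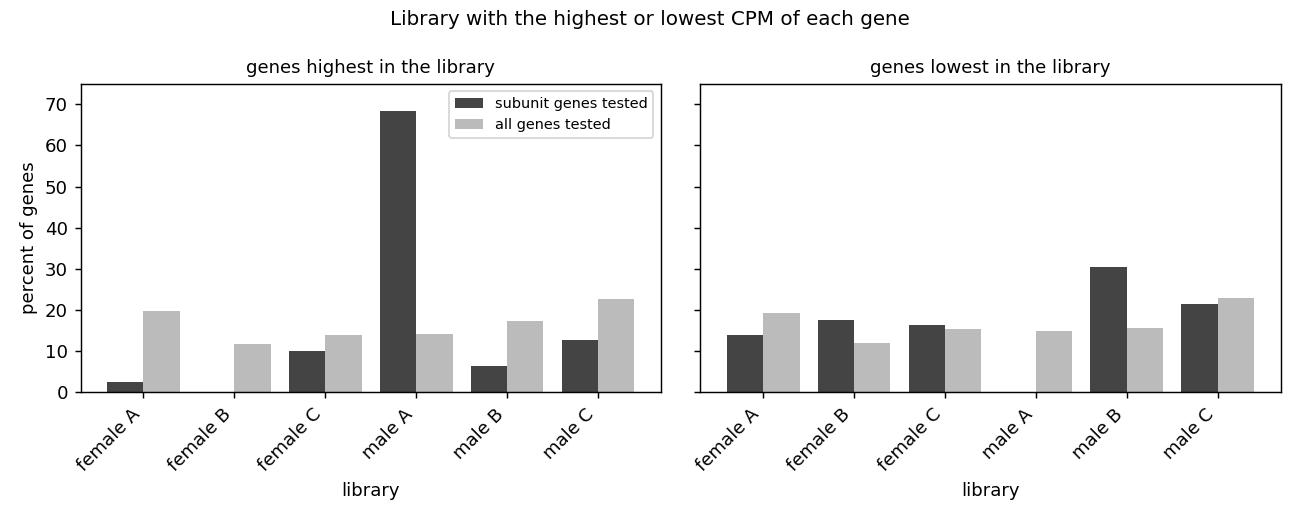
Percent of genes (y axis) for which each library (x axis) was the highest (left) or the lowest (right) of the 6, for the 79 subunit genes tested (dark bars) and all 15026 genes tested (light bars). Male A was the highest at 68.4% of subunit genes and 14.2% of all genes, and the lowest at none of the subunit genes.

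The excess of male A was seen in subunit genes of high and of moderate level, and the lowest tested members were mixed. Of those, male A was the highest library at Cox6b2 (0.47 on the log2 scale above the other 5). It was above their mean but not the highest at Cox7b2 (0.42), Cox7a1 (0.17) and Cox7c (0.03). It was below their mean at Atp5g1 (-0.08), Atp5l (-0.12) and Cox4i2 (-0.50). Ndufc2 was at 276, 323 and 323 RPKM in female A, B and C and at 427, 314 and 319 RPKM in male A, B and C. Ndufb4, an accessory subunit of complex I, was at 14.0, 15.1 and 14.8 RPKM in the females and 22.1, 14.2 and 12.8 RPKM in the males. In both genes the other 5 libraries were close together and male A alone was high. Atp5mpl was at 736, 796 and 468 RPKM in the females and 1050 (the highest), 491 and 490 RPKM in the males, so that it separated female A, female B and male A from the other 3 libraries as well. Without female C and male B, male A was the highest of the remaining 4 libraries at 61 members, beside 20.5% of all genes. The excess was seen under 4 scalings of library size, with 51 to 55 members and medians of 0.30 to 0.35.

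Other values moved with male A. Of 7 erythroid markers, summed at 1023 CPM in male A and at 34.7 to 185 CPM in the other libraries, all 5 that passed the filter were highest in male A, with the haemoglobin gene Hbb-bs at 659 RPKM there and 22.1 to 121 RPKM elsewhere. Immediate early genes such as Fos, which respond to stimulation and to cell handling, summed to 158 CPM in male A, the lowest of the 6, and to 351 to 1212 CPM elsewhere. Markers of satellite glia and Schwann cells had a median 0.36 lower (log2) in male A than in the other 5, and the list median was the lowest of the 6 there, at 4.18 against 4.32 to 4.83 on the log2(RPKM + 0.1) scale. Their sum was 2017 CPM in male A, inside the range of the others. Of the 12 markers Sox10, which defines these cells, was at 2.63 RPKM there and 2.43 to 6.11 RPKM elsewhere. S100b went the other way and was highest in male A, at 97.6 RPKM against 44.9 to 83.5 RPKM. Fabp7 was at 371 RPKM there and 241 to 372 RPKM elsewhere. Glycolysis genes had a median 0.21 lower (log2) in male A than in the other 5, and citric acid cycle genes a median 0.06 higher. For the 8 mitochondrially encoded subunit genes that passed the filter the median was 0.55 higher in male A. It was the highest library at 2 of these 8. All 13 such genes summed to 21185 CPM in male A and 12568 to 18937 CPM elsewhere. They were read unevenly, as described under other observations. Across genes, the log2 difference of male A from the other 5 had a Spearman correlation with GC content of -0.36 over all tested genes and -0.19 over members, and with length of -0.07 and -0.24. The part of these in the excess was not tested.

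Complex II followed another pattern, with male C at the top of all 4 genes. Sdha was at 88.8, 88.1 and 81.2 RPKM in female A, B and C and at 78.7, 72.8 and 102 RPKM in male A, B and C. Sdhb was at 209, 189 and 199 RPKM in the females and 240 (male A), 202 and 241 RPKM in the males. Sdhc was at 41.7, 38.2 and 42.4 RPKM in the females and 45.1, 44.0 and 61.1 RPKM in the males, and Sdhd at 218, 205 and 210 RPKM in the females and 243, 209 and 283 RPKM in the males. Sdhc and Sdhd were clearly highest in male C, whereas Sdhb was level in male A and male C.

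The complex II genes lay a median of 0.36 (log2) above the other 5 libraries in male C, and 0.06 above in male A. Over all members, male C was the highest at 10 of 79 (12.7%), beside 22.7% of all genes, with a median of -0.05. With upper-quartile factors or the total count, male C was the highest at 3 of the 4 complex II genes, with medians of 0.34 and 0.26. Among the other 13 citric acid cycle genes on the list the median was 0.28 higher in male C, with Mdh2, malate dehydrogenase, at 588 RPKM there and 389 to 455 RPKM elsewhere. The 17 glycolysis genes had a median 0.31 higher in male C. Sensory neuron markers were a median 0.20 higher there, and endothelial markers, at 4.44 CPM in male C and 9.01 to 11.5 CPM elsewhere, were lowest. Male C is also the 1-embryo library with the later record and the smallest total, which cannot be told apart from each other.

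**Figure D4:**
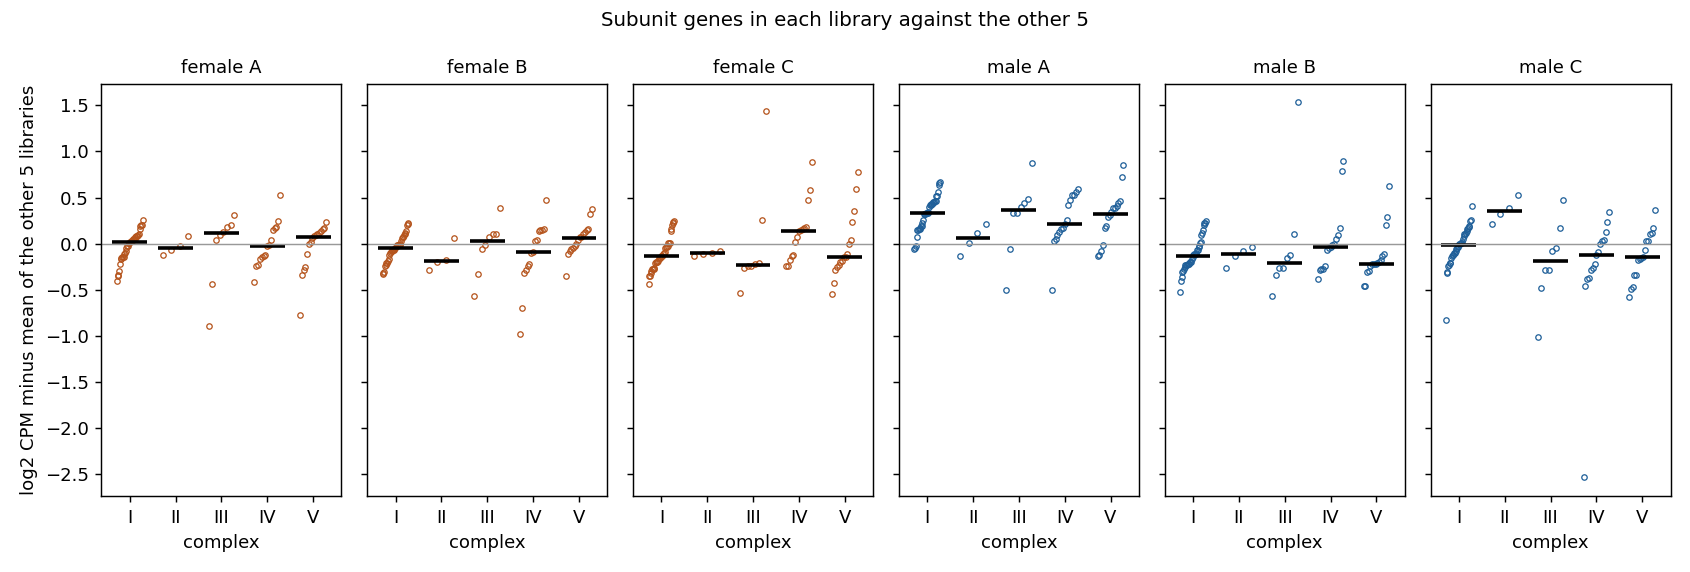
Log2 CPM of each tested subunit gene in a library minus its mean over the other 5 libraries (y axis), by complex (x axis), with 1 panel per library, 1 point per gene and a bar at the median. In male A the medians are 0.33 in complex I, 0.06 in complex II and 0.37 in complex III, and in male C complex II alone stands out, at 0.36.

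Female C and male B resembled each other. They were the 2 lowest of the 6 libraries at 28 of 79 members (35.4%), beside 18.4% of all genes, and the 2 highest at 8 members (10.1%), beside 20% of all genes. Among these 8 were Uqcrfs1, Cox4i2, Cox5a, Atp5b and Atp5d. The deviations of these 2 libraries from their sex means had a correlation of 0.55 over genes. Immediate early genes summed to 1212 CPM in female C and 1167 CPM in male B, against 158 to 700 CPM elsewhere. Glial markers were also high in both, with Apoe at 264 and 268 RPKM against 108 to 155 RPKM elsewhere, Sox10 at 5.25 and 6.11 RPKM against 2.43 to 3.62 RPKM, and Mbp at 21.1 and 25.1 RPKM against 9.88 to 15.7 RPKM. Over the 12 glial markers the sums were 2267 and 2388 CPM, against 1880 to 2342 CPM elsewhere. The medians of 8 fibroblast markers were the 2 highest of the 6, at 3.27 and 3.71 on the log2(RPKM + 0.1) scale against 2.10 to 2.95, with sums of 664 and 819 CPM against 510 to 684 CPM. Across genes, the log2 difference of these 2 from the other 4 libraries had a Spearman correlation with GC content of 0.56 over all tested genes and 0.31 over the members. The part of these in the pattern was not tested.

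Most members varied less among libraries than the typical gene. The median SD of log2 CPM over the 6 libraries was 0.21 for members and 0.30 for all tested genes, and the median biological coefficient of variation in edgeR was 0.179 and 0.238. The steadiest were Ndufs6, an accessory subunit of complex I, with an SD of 0.09, followed by Cox8a, Atp5a1, Cox5b and Ndufv3. Atp5a1 was at 313, 323 and 332 RPKM in the females and 367, 313 and 356 RPKM in the males. High genes are counted more precisely, and the members were not compared with other genes of like level.

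A few members broke the common pattern. Uqcrfs1 was at 32.6, 39.1 and 125 RPKM in female A, B and C and at 40.8, 132 and 30.3 RPKM in male A, B and C, from 614 to 4310 reads. Female C and male B were high, the other 4 libraries were low, and the highest was 4.35 times the lowest. None of the 50-base words of Uqcrfs1 occur in another gene. Atp5d, of the central stalk of the ATP synthase, had the same 2 libraries on top, at 136 RPKM in female C and 138 RPKM in male B against 61.8 to 98.2 RPKM elsewhere. Uqcrb, another complex III subunit, was opposite, at 91.7 and 89.5 RPKM in female C and male B, 94.5 RPKM in male C and 150 to 207 RPKM in the remaining 3. Of the 50-base words of Uqcrb, 43.42% occur in 5 other genes.

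Cox5a, a matrix-facing subunit of complex IV, had the largest spread of all tested members. It was at 127, 152 and 192 RPKM in female A, B and C and at 130, 182 and 26.5 RPKM in male A, B and C. Male C was far below the others, with 272 reads against 1388 to 3163, and the highest library was 7.25 times the lowest. Of its 50-base words, 32.05% occur in 3 other genes. Cox5b, its partner in the complex, showed nothing of this, with a range of 100.9 to 119 RPKM. Cyc1 was also lowest in male C, at 30.0 RPKM against 58.7 to 94.9 RPKM elsewhere.

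**Figure D5:**
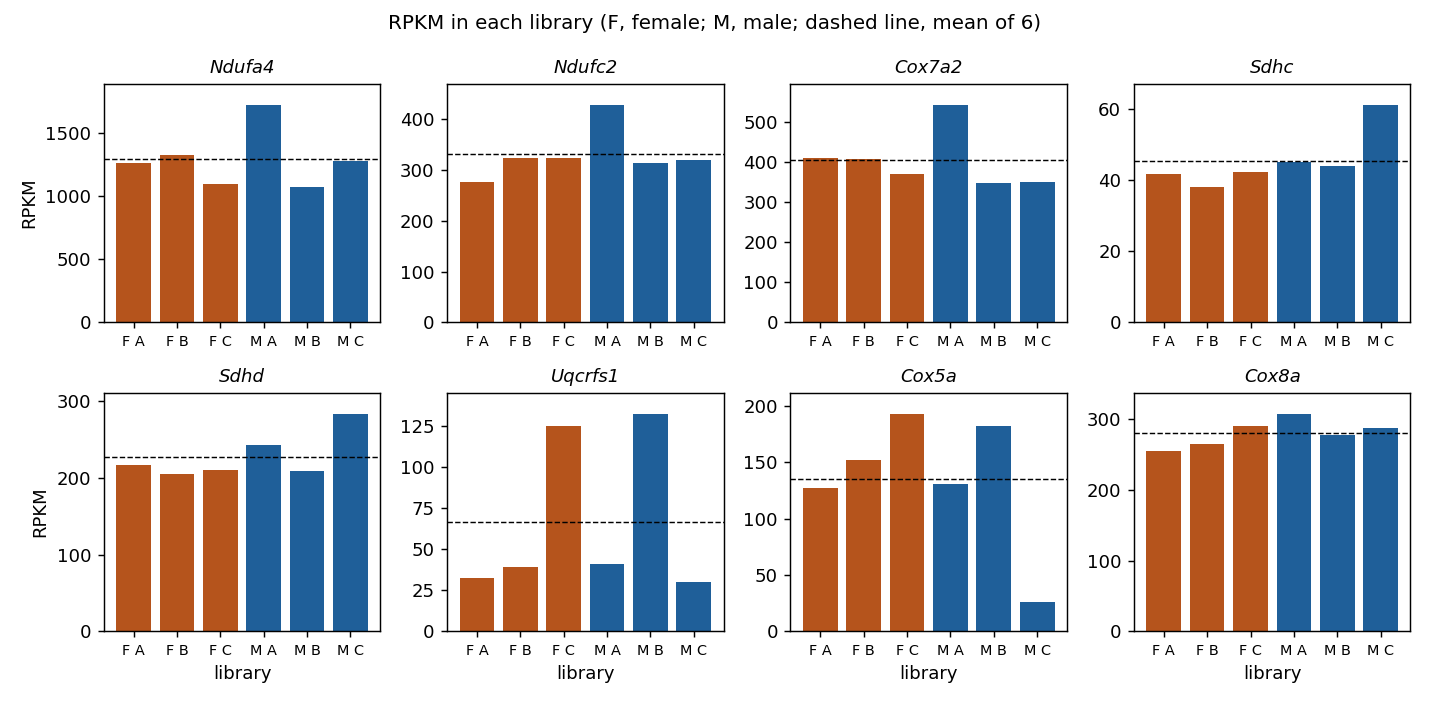
RPKM (y axis) of 8 subunit genes in each library (x axis), with the mean of the 6 libraries as a dashed line. Ndufa4, Ndufc2 and Cox7a2 peak in male A, Sdhc and Sdhd in male C, Uqcrfs1 in female C and male B, Cox5a is low in male C alone, and Cox8a is nearly level.

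No gene on the lists around the respiratory chain was called between sexes either. In the lists of assembly factors, coenzyme Q synthesis, regulators of mitochondrial biogenesis, citric acid cycle, glycolysis and mitochondrially encoded subunits, edgeR called 0 genes in either direction. Over all genes it called 5 of 15026 (0.0333%), so a count of 0 does not set these lists apart. Assembly factors were lower than the subunits they serve, with medians of log2(RPKM + 0.1) of 4.55 ± 0.15 for complex I, 3.87 ± 0.17 for complex II, 3.43 ± 0.24 for complex III, 2.97 ± 0.12 for complex IV and 3.70 ± 0.38 for complex V (SD, n = 6). The highest of each were Ndufaf2 (69.8 RPKM), Sdhaf4 (106 RPKM), Uqcc2 (112 RPKM), Coa3 (215 RPKM) and Fmc1 (71.1 RPKM). Regulators were lower still, at a median of 1.397 ± 0.088, with Tfb1m and Tfam, both factors of mitochondrial transcription, at 15.7 and 6.75 RPKM. Nrf1 itself was at 2.82 RPKM and the coactivator Ppargc1a at 1.247 RPKM.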

How the data were processed

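The authors deposited, for each of 6 libraries, a table of 41388 genes with whole-number read counts, CPM and RPKM. Per the labels' protocols, 10 ng of RNA went into a SMARTer Ultra Low Input kit, with 12 PCR cycles for the library. Counting used featureCounts 1.4.5 on GRCm38.p2, per the submitters' processing notes. Not given in the sources used here are the aligner, the annotation release, strand use and the handling of reads matching several places. Deposited CPM and RPKM values equal the counts scaled by library total and gene length, which was checked, and both were recomputed with TMM library sizes (edgeR 4.0.16, R 4.3.3).

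GENCODE M21 gave symbols to 40254 identifiers (97.26%). Genes passing filterByExpr were tested between sexes with edgeR's quasi-likelihood test and Benjamini-Hochberg adjustment over all of them, with 0.05 as threshold. Isoform pairs used 64 sign flips. Lists were summarised by the median over members of log2(RPKM + 0.1). Words of 50 bases were compared across annotated transcripts. A count of 0 was read as up to 3 reads at the 95% level. The edgeR step was tested on simulated data. Alternatives were RLE and upper-quartile factors, other filters, DESeq2 1.42.0, limma-voom (limma 3.58.1), a letter block, the number of pooled embryos in the model, leaving out each library, CPM for RPKM, a pseudocount of 1 and the mean over members.

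The members, lists and alternatives were chosen with earlier results of these data known. Named genes are the highest 3, the lowest and the one of smallest p in each complex, the isoform pairs, the genes under the filter, the 5 of largest and the 5 of smallest spread and the leading genes of each other list, of which a selection is printed; the values of 1 member are not reported here. Other named genes were chosen after their values were seen, as were the total-count scaling and leaving out female C and male B together. The letters A, B and C were not treated as pairs, since the deviations of same-letter libraries correlated at 0.28, -0.29 and -0.08. Same-sex libraries differed by more than counting noise, with chi-square per degree of freedom of 20.8 to 73.2.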

Additional observations from a re-analysis of the deposited data

Results flagged for a closer look

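For 8 results, the gap between 1 library and the nearest of the other 5 was wider, relative to the range, than Dixon's 95% limit for 6 samples. Chance flags about 1 in 20 groups, and of 81 members examined 6 were flagged, a number not far from that share. The share flagged over all tested genes is not given here. In 6 of the 8, male A was the highest. The complex I median of log2(RPKM + 0.1) was 7.08 in male A and 6.72 to 6.77 in the other 5 libraries, and the single genes were Ndufa13 at 142 RPKM against 97.7 to 113, Ndufb4 at 22.1 RPKM against 12.8 to 15.1, Ndufc2 at 427 RPKM against 276 to 323, Cox7a2 at 540 RPKM against 346 to 409, and Atp5j2, the f subunit of the ATP synthase, at 222 RPKM against 164 to 180. In male C, Sdhc was the highest at 61.1 RPKM, against 38.2 to 45.1 RPKM, and the complex IV median was the lowest at 5.28, against 6.07 to 6.48. Gene by gene, the tested complex IV members lay a median of only -0.12 (log2) from the other 5 libraries in male C, beside -0.18 in complex III and -0.15 in complex V, and Cox5a was at 26.5 RPKM there against 127 to 192 RPKM. These libraries carry no label of their own that was tested.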

How the results depend on the processing

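Between sexes, edgeR, DESeq2, limma-voom and every other setting run called 0 members, and the count over all genes was 5 with each library left out (lowest and highest both 5) and with the replicate block, which also called 0 members. Not every library correlated best with its own letter, so the letters only name the libraries, and the replicate block changed no call. Without a filter the count over all genes was 12. The complex medians were 7.357, 8.276, 7.604 and 7.763 for complexes I, II, III and V with CPM in place of RPKM. Complex III was then below complexes II and V and no longer at the top. With the mean over members the levels were 6.863 for complex II, 4.276 for complex IV and 6.08 for complex V, and with members passing the filter alone 6.774 for complex IV. Leaving out each library, the number of isoform pairs past the threshold was 0 in each case, since 5 libraries allow no p below 0.0625, and no pair changed direction. With the total count as scale, male C was the lowest at 30 members, beside 29.7% of all genes, and male B at 17, so their order turned. Of 276 alternatives run over all results, 199 kept their direction and side of the threshold, and 60 of the other 77 are the isoform pairs with 1 library left out. Depth limits Cox6a2, Atp5g2, Cox7a1 and Cox7b2, read at most 31 times in a library.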

Other observations

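The part of the respiratory chain encoded in mitochondrial DNA was read unevenly. Of 13 mitochondrially encoded subunit genes, mt-Cytb of complex III was at 5027 ± 1217 RPKM, mt-Nd1 of complex I at 4177 ± 1161 RPKM and mt-Co1 of complex IV at 2703 ± 392 RPKM (SD, n = 6). The genes mt-Co2, mt-Co3, mt-Atp6, mt-Atp8 and mt-Nd4l had 0 to 4 reads in each library, although their products are parts of the same complexes. Whether reads with several matching places were counted is unknown here, so these values are not read as levels. The median of the 13 genes on the log2(RPKM + 0.1) scale ran from 7.85 in male C to 9.50 in female A.

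Carriers and regulators outside the symbol rule were read at widely different values. Atpif1, the inhibitor of the ATP synthase, was at 356 ± 74.6 RPKM and was highest in male A, at 486 RPKM. Cycs, the somatic cytochrome c, was at 8.48 ± 1.85 RPKM and Ndufab1, the mitochondrial acyl carrier protein, at 4.44 ± 1.52 RPKM. Sharing of their sequence with pseudogenes was not computed, and Gapdh and Pgk1, glycolysis genes of every cell, were likewise read at only 3.84 ± 0.98 and 7.22 ± 0.50 RPKM, so these are not read as differences in level. Cyct, the testis cytochrome c, had 0 to 1 reads in each library. Ndufa4l2, a relative of Ndufa4 known to respond to low oxygen, was at 0.771 ± 0.525 RPKM, with 5 to 33 reads.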
